A study of Mus musculus with 3 samples.

Results

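The macrophage-like cells of cluster 5 were the cells that the authors had placed in Leiden cluster 5 and that held *C1qb* at 4 or more and *Mpo* below 4 unique molecular identifiers (UMIs) per 10,000 UMIs of the cell. These 651 cells were 6.81% of the 9562 cells of the series (95% exact binomial interval 6.31–7.33) and 41.4% of the 1572 cells of cluster 5. The other cells of cluster 5 were 207 cells with *Mpo* at 4 or more, called *Mpo* cells here, and 714 remaining cells with both genes below 4. Clusters 0, 1 and 2, with 6923 cells, served as the second comparison. Because *C1qb* and *Mpo* chose the cells and the clustering had used these counts, all values below describe these cells and none is a test.

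The study asked how adult endothelium responded to PDGFRA+ stromal cells of the embryonic aorta. Endothelial cells were sorted from hearts of 12 to 16-week-old female GFP mice, as GFP+ cells with CD31 and VE-Cad but without PDGFRA, PDGFRB, CD45 and CD41. They were taken fresh (0 h) or sorted again as GFP+ CD31+ VE-Cad+ PDGFRA- cells after 24, 48, 72 or 96 h in aggregates with *Mesp1* der PSCs of E11.5 embryos, in medium with IL-3, SCF and Flt3 ligand at 100 ng/ml each. The PSCs, the PDGFRA+ stromal cells, were DsRed+ cells that lacked PDGFRB and the endothelial and blood antigens named above. They came from the aorta-gonad-mesonephros of embryos that carried *Mesp1*-cre and the Z/Red reporter, in which DsRed marks descendants of *Mesp1*-expressing cells. CD45 and CD41 were excluded in the first sort, whereas the gate after culture lists neither of them. Each of 3 pools (A, B and C) held cells of all 5 time points, and the barcodes carry 1 of 3 library suffixes that the material used here ties to no pool. No time point is given per cell, so fresh and cultured cells cannot be told apart, and the matrix was treated as 1 sample without replicates. Intervals cover counting error only.

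Macrophages are phagocytes of the tissues. They take up dying cells, iron and lipid, digest them in lysosomes and depend on signals through the receptor *Csf1r*. The chains *C1qa*, *C1qb* and *C1qc* assemble into C1q, which starts the classical complement pathway and tags dying cells for uptake, and tissue macrophages are its best known source. In the embryo, macrophages arise from yolk sac and later precursors and lie close to the aorta while blood stem cells emerge there.

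PU.1 (*Spi1*), the ETS factor that macrophages require, binds purine-rich sites with the core GAGGAA. The bases before 3 of the marker genes are shown, and these 3 are the searched markers that held these letters on either strand. The marker *Cx3cr1* was searched, held none and is not shown. The stretches are the 250 bases before the transcription start of RefSeq on GRCm38.p6, 5′ to 3′ on the strand of the gene, with GAGGAA or its reverse complement TTCCTC in capitals. *C1qb* lies on the reverse strand and its stretch is chr4:136886201-136886450, *Mrc1* lies on the forward strand with chr2:14229164-14229413, and *Aif1* lies on the reverse strand with chr17:35176053-35176302.
C1qb: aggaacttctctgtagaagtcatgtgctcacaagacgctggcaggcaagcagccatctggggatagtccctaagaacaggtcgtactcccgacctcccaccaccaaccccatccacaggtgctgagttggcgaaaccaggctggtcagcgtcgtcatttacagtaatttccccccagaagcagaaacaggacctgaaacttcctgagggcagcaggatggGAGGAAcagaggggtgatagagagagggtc
Mrc1: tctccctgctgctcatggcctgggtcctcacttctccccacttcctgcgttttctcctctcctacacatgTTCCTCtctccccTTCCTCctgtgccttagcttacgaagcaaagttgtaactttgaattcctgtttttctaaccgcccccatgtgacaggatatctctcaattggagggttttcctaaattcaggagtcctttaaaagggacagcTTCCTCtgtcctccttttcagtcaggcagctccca
Aif1: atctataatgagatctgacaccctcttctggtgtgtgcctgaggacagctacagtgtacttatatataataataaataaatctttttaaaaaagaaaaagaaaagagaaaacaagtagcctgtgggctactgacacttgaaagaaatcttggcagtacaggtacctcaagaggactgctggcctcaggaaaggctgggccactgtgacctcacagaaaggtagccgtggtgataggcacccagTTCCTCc
The capitals begin 30 bases before the start in *C1qb*, 180, 167 and 35 bases before it in *Mrc1*, and 7 bases before it in *Aif1*. *C1qc* and *Fcrls* also held 1 match each in the same window, and *Cx3cr1* and *Timd4* held none. Of 11 genes chosen for this search, 7 gave a stretch. *C1qa*, *Spi1* and *Maf* had no entry among the RefSeq promoters used. The marker *Csf1r* was left out of the search, so its bases were not examined. Among all 32851 promoters in the RefSeq table, 23.3% held the letters on either strand, against 28.3% of the 942 promoters of genes at least 2-fold higher in the macrophage-like cells than in clusters 0–2, 25.4% of the 1624 promoters of genes at least 2-fold lower, and 22.8% of the 8958 promoters of all genes compared. The 3 C1q genes lie next to each other on chromosome 4, with *C1qb* at 136880129–136886187, *C1qc* at 136889804–136893065 and *C1qa* at 136895917–136898803 in GENCODE M21.

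The macrophage-like cells came from all 3 libraries, with 261, 245 and 145 cells under suffixes 1, 2 and 3, or 43.4%, 38% and 44.5% of the cluster 5 cells of each. Their median depth was 35438 UMIs per cell, with 37761, 16407 and 60608 by suffix, and a median of 5671 genes. Clusters 0–2 were shallower, with a median of 19011 UMIs. Mitochondrial genes took a median of 3.0% of UMIs in the macrophage-like cells and 3.05% in clusters 0–2. Thinned to 5,000 UMIs per cell, 650 of the 651 cells were kept, and shares of cells below are at this depth unless said otherwise. The suffixes shared 13 barcodes, carried by 26 cells of which 2 were macrophage-like. Scrublet called 8 of the 9562 cells as doublets, 2 of them macrophage-like. So few calls say nothing on doublets, and the study's methods state that singlets were kept.

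The hearts came from female mice, but transcripts of the Y-linked genes *Ddx3y*, *Eif2s3y*, *Kdm5d* and *Uty* were present. Of the macrophage-like cells as deposited, 46.7% (42.8–50.6) held a Y-linked UMI and no *Xist* UMI, 34.3% (30.6–38.0) held *Xist*, the RNA of the inactive X chromosome, without a Y-linked UMI, 13.2% held both and 5.84% neither. At 5,000 UMIs, 27.2% (23.8–30.8) held a Y-linked UMI, against 29.3% (28.2–30.4) in clusters 0–2 and 30.3% in cluster 4. Clusters 0, 1 and 2 were not alike, with 32.8%, 46.4% (42.8–50.1) and 26.5%. Y-linked UMIs were thus read in the other clusters too, and the level of *Xist* was 0.575 per 10,000 in macrophage-like cells with a Y-linked UMI and 4.39 in the others. The sex of the embryos is not given in the sources used here, and the source of these transcripts was not tested.

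Split after these values were seen, the 304 cells with a Y-linked UMI and no *Xist* and the 223 cells with *Xist* and no Y-linked UMI both held the macrophage genes. *C1qb* was at 18.1 per 10,000 in the first and 16.2 in the second, *Csf1r* at 3.99 and 3.47, *Mrc1* at 3.72 and 3.13, and *Cx3cr1* at 5.70 and 5.37. *Fcna* and *Timd4*, which mark resident macrophages of some tissues, stood further apart, at 0.725 and 0.164 and at 0.221 and 0.0832, and *Hmox1*, the haem oxygenase, at 6.20 and 2.48. *Fcna* was read in 146 of the 651 macrophage-like cells, *Timd4* in 94 and *Hmox1* in 549. For each gene, 10 of the 651 cells held a large part of the UMIs, 44.4%, 40.8% and 39.8% in this order. A few cells can thus set these summed levels apart.

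**Figure D1:**
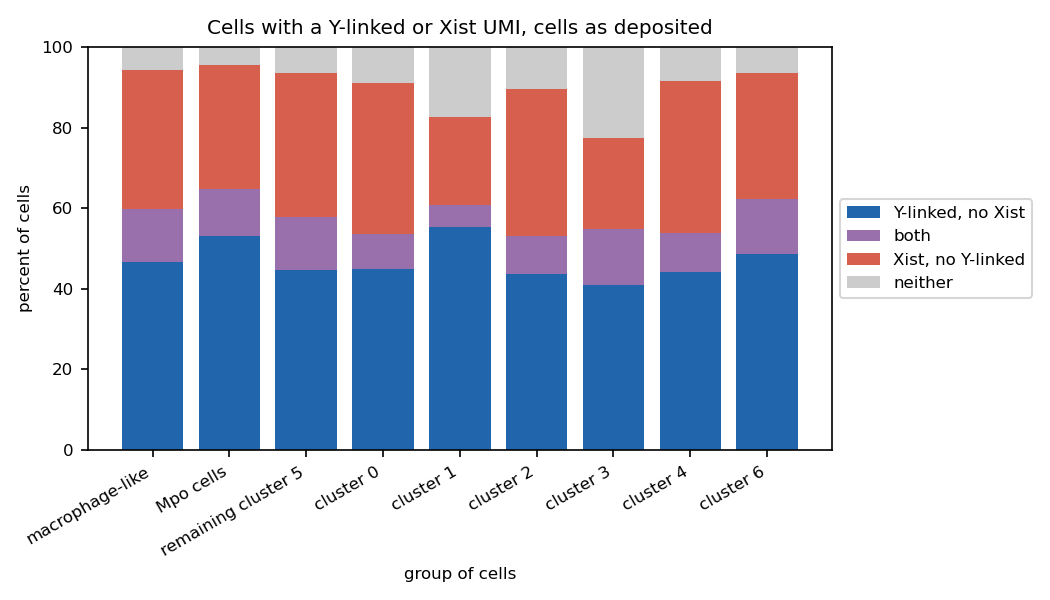
Each bar is a group of cells as deposited (x axis), divided into the percent of cells with a Y-linked UMI and no *Xist* UMI, both, *Xist* without a Y-linked UMI, or neither (y axis, 0 to 100). The macrophage-like bar, with 46.7%, 13.2%, 34.3% and 5.84%, differs little from that of the remaining cluster 5 cells with 44.7%, 13.2%, 35.6% and 6.58%.

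The thresholds cut through a continuous range. *C1qb* in the macrophage-like cells ran from 4.03 to 68.1 per 10,000, with quartiles of 10.4, 16.5 and 24.3. The members nearest to the threshold held 4.03, 4.05 and 4.06, and the remaining cluster 5 cells just below it held 3.93, 3.91 and 3.88. In the interval from 4 to below 5 lay 29 members, and 32 remaining cells lay from 3 to below 4. Of the remaining cells, which have *Mpo* below 4 too, 569 held no *C1qb* UMI at all. *Mpo*, the myeloperoxidase of neutrophil precursors, was present with at least 1 UMI in 98 members, at 1 per 10,000 or more in 27 and at up to 3.69. Only 4 cluster 5 cells passed both thresholds, and these were counted with the *Mpo* cells.

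The 5 marker genes were all high in the macrophage-like cells. *C1qb*, which chose the cells, stood at 16.9 UMIs per 10,000 (16.7–17.0), with 17.2, 15.1 and 17.6 by suffix, against 0.0820 in *Mpo* cells, 0.269 in the remaining cluster 5 cells and 0.0905 in clusters 0–2. A level here is the sum of the UMIs of a gene over a group of cells per 10,000 UMIs of that group, and levels are compared within a gene because the assay counts 3′ ends.

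*Csf1r*, the receptor for CSF1 and IL-34, stood at 3.60, 3.47 and 3.82 per 10,000 in the 3 libraries of the macrophage-like cells, 3.65 in all, against 0.540, 0.625 and 0.0184 in *Mpo* cells, remaining cells and clusters 0–2. No library of any other group exceeded 0.661. The log2 ratio was 7.63 (7.47–7.80) against clusters 0–2, 2.76 against *Mpo* cells and 2.54 against the remaining cells. After thinning, 80.3% of macrophage-like cells and 1.14% of cells of clusters 0–2 held a *Csf1r* UMI.

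*Cx3cr1*, the fractalkine receptor of monocytes and resident macrophages, stood at 5.05, 5.68 and 5.39 by suffix, 5.32 in all, against 0.350, 0.747 and 0.0111 in the same 3 groups. The highest library elsewhere was at 0.837. Its log2 ratio of 8.91 (8.69–9.13) against clusters 0–2 was the largest among the genes with at least 1 UMI per 10,000 and the same direction in every library. It was held by 85.8% of the macrophage-like cells and 0.833% of the cells of clusters 0–2.

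*Mrc1*, the mannose receptor, stood at 3.04, 3.97 and 3.5 by suffix, 3.42 in all, and at 0.0147, 0.0269 and 0.0270 in *Mpo* cells, remaining cells and clusters 0–2. Among genes with at least 1 UMI per 10,000 and the same direction in every library it had the largest log2 ratio against both other groups of cluster 5, with 7.86 against *Mpo* cells and 6.99 against the remaining cells. It was also the most uneven of the markers among the cells, with quartiles of 0.181, 2.27 and 5.77 and a highest value of 35.1, and 57.8% of thinned cells held it. *Aif1*, the actin-binding protein IBA1, stood at 2.51, 1.98 and 2.43 by suffix, 2.36 in all, against 0.0463, 0.151 and 0.0143. Its log2 ratios were 5.67 against *Mpo* cells, 3.96 against the remaining cells and 7.37 against clusters 0–2.

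**Figure D2:**
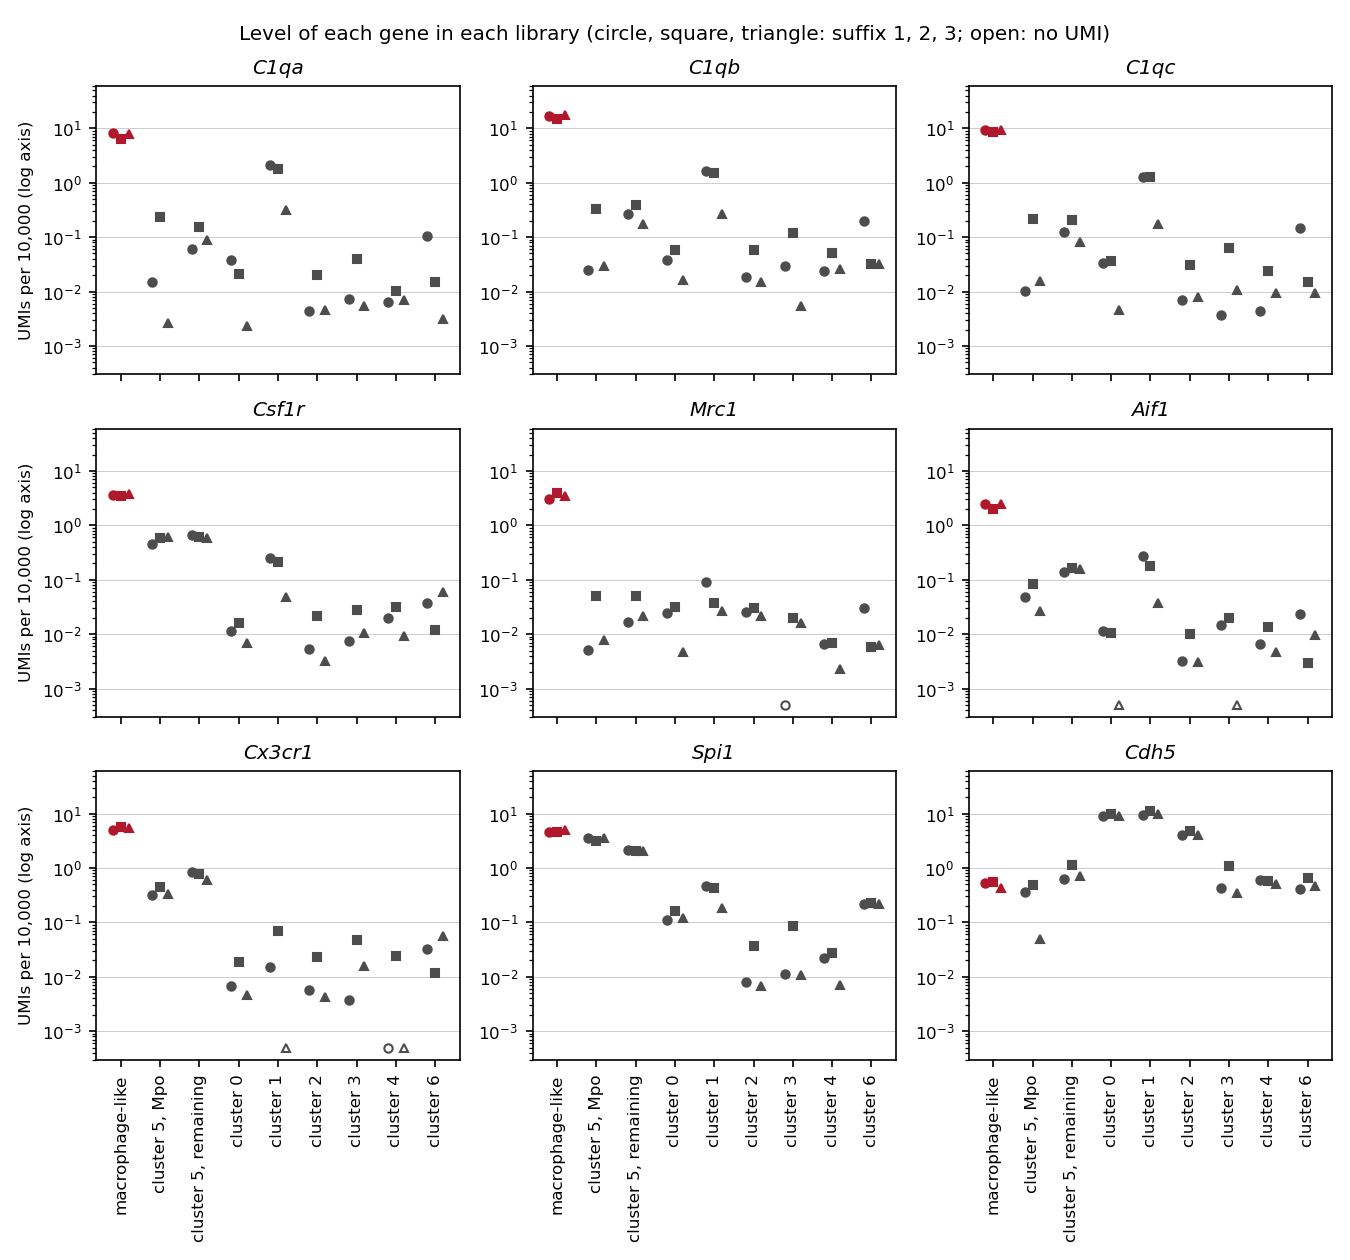
Each panel is 1 gene, and each point is the level in 1 library (circle, square and triangle for suffixes 1, 2 and 3) as UMIs per 10,000 on a log axis, for the macrophage-like cells (red) and the other groups of cells (grey), with open symbols where no UMI was counted. The red points of *Cx3cr1* sit at 5.05 to 5.68, and the next library of any group at 0.837.

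Across all genes, 8824 reached 0.1 UMIs per 10,000 in the higher of the macrophage-like cells and clusters 0–2, *C1qb* and *Mpo* left out. Of these, 912 (10.3%) were at least 2-fold higher in the macrophage-like cells and 1591 (18.0%) at least 2-fold lower. Against *Mpo* cells, 678 of 8066 genes (8.41%) were at least 2-fold higher and 353 (4.38%) lower. Against the remaining cluster 5 cells, 646 of 8216 (7.86%) were higher and 400 (4.87%) lower. The median log2 ratio of all genes was -0.12, -0.05 and -0.11 in the 3 comparisons, and the ratios below are to be read against these medians. The counts of list members that follow are to be read beside these shares. The comparisons share the macrophage-like cells, and their values are given side by side only.

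The other C1q chains stood with *C1qb*. *C1qa* was at 8.09, 6.49 and 7.77 by suffix, 7.60 in all, and *C1qc* at 9.44, 8.67 and 9.22, 9.18 in all. In *Mpo* cells, remaining cells and clusters 0–2 no group exceeded 0.0935 for *C1qa* and 0.133 for *C1qc*. After thinning, 80.0% (76.7–83) of the macrophage-like cells held *C1qa* and 93.4% held *C1qc*, against 1.52% and 1.68% in clusters 0–2. Of the complement list of 10 genes, 6 could be compared with clusters 0–2 beside *C1qb*, and all 6 were at least 2-fold higher, with a median log2 ratio of 5.93. The levels of clusters 0–2 rest on few cells. Cells of these clusters with *C1qb* at 4 or more held most of their C1q UMIs, and without them, a choice made after the values were seen, *C1qa* UMIs fell in number from 1387 to 289 and *C1qc* UMIs from 1026 to 299. The log2 ratios were then 8.73 in place of 6.47 for *C1qa* and 8.95 in place of 7.18 for *C1qc*. All 6 were also higher than in the remaining cells, with a median of 4.77. They include the receptors for the complement fragments C3a and C5a, *C3ar1* at 1.46 and *C5ar1* at 0.914, and the positive regulator properdin, *Cfp*, at 0.760. *C3* itself was nearly unread, at 0.00483.

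Receptors for antibody complexes and their signalling adaptors were high. All 8 compared genes of this list were at least 2-fold higher than in clusters 0–2 (median 5.37) and 7 of 8 than in the remaining cells (median 2.48), whereas against *Mpo* cells 4 of 9 were higher and 1 lower. *Fcgr1*, the high-affinity IgG receptor, stood at 1.72 with log2 ratios of 5.47 against clusters 0–2 and 2.70 against the remaining cells. *Fcgr3*, the low-affinity receptor, was at 3.02 in the macrophage-like cells and 2.83 in *Mpo* cells, a log2 ratio of 0.09. *Tyrobp*, an adaptor that carries an ITAM, was at 9.08 against 0.115 in clusters 0–2. Its partner *Trem2*, a lipid-sensing receptor, was at 1.54 with a log2 ratio of 5.95.

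Of the scavenger and lectin receptors, 3 of 5 were at least 2-fold higher than in clusters 0–2 and all 5 than in the remaining cells, with medians of 3.43 and 3.69. The haemoglobin receptor *Cd163* was at 0.00443. *Clec7a* was the only gene of any list that the count table did not hold. Among genes for uptake of dying cells, 4 of 9 were higher and 2 lower than in clusters 0–2, with a median of 0.48, and 6 of 8 were higher than in the remaining cells, with a median of 2.34. *Mertk*, a receptor kinase that binds bridged phosphatidylserine, stood at 0.240 against 0.0240 in clusters 0–2, and *Gas6*, a bridging ligand, at 0.893 against 0.318. *Timd4*, a phosphatidylserine receptor of long-lived resident macrophages, was at 0.162 with UMIs in 94 members, and 10 cells held 40.8% of them.

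Toll-like receptors and sensors were higher than in clusters 0–2 for 5 of 7 compared genes and lower for none, with a median of 2.14, and higher than in the remaining cells for 6 of 7. Their levels were low, with *Tlr2* at 0.283, *Tlr4* at 0.167 and *Tlr7* at 0.137.

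Lysosomal genes were higher than in the other cells of cluster 5. The 19 genes of the list summed to 72.9 UMIs per 10,000 in the macrophage-like cells, 18.3 in the remaining cells, 25.9 in *Mpo* cells and 19.6 in clusters 0–2. Within the latter the sum was 32.4 in cluster 0 and 15.2 in cluster 2 but 73.7 in cluster 1, about that of the macrophage-like cells. Of the 19, 12 were at least 2-fold higher than in clusters 0–2 and 16 than in the remaining cells, none was lower in either comparison, and the medians were 1.73 and 1.79. *Ctsb*, a cysteine protease, stood at 12 against 1.90 in clusters 0–2 and 0.952 in the remaining cells, with log2 ratios of 2.66 and 3.66, and was at 12.9 in cluster 1. *Ctsc*, which activates serine proteases of granules, stood at 7.30 against 0.101 in clusters 0–2. *Lgmn*, the asparaginyl endopeptidase, stood at 6.58, with log2 ratios of 4.11, 5.56 and 4.31 against clusters 0–2, *Mpo* cells and remaining cells.

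All 6 genes of iron and haem handling were at least 2-fold higher than in clusters 0–2, and 5 of 6 than in the remaining cells, with medians of 1.91 and 2.89. The list summed to 123 per 10,000 against 43.7 in clusters 0–2, where cluster 1 was higher than the macrophage-like cells at 218 and clusters 0 and 2 were lower at 35.0 and 34.0. The sum came largely from the ferritin chains *Ftl1* at 68.8 against 23.3 and *Fth1* at 47.1 against 18.9. *Hmox1* was at 4.25, 0.188 and 1.05 in macrophage-like, remaining and clusters 0–2 cells. It was read in 549 of the 651 cells but unevenly, with a median cell at 0.964, a highest cell at 157 and 39.8% of its UMIs in 10 cells. *Slc40a1*, the iron exporter ferroportin, was at 0.824 with log2 ratios of 2.91 and 4.65 against clusters 0–2 and the remaining cells.

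Genes for lipid handling were mixed. Of 10 compared with clusters 0–2, 4 were higher and 3 lower, with a median of 0.17. *Apoe*, the carrier of lipid in lipoproteins, was at 24.4 against 2.06, and *Lpl*, the lipoprotein lipase, at 3.23 against 0.138. *Fabp4*, a fatty acid carrier of heart capillaries, was at 0.732 against 4.61, a log2 ratio of -2.66.

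Of 12 transcription factors, 9 were at least 2-fold higher and 1 lower than in clusters 0–2, with a median of 4.08. *Spi1*, which encodes PU.1, was at 4.74 in macrophage-like cells, 3.5 in *Mpo* cells, 2.07 in remaining cells and 0.0436 in clusters 0–2. It was thus read throughout cluster 5. *Maf*, a factor of mature macrophages, was at 3.79, 0.0842, 0.386 and 0.0913 in the same order, with a log2 ratio of 5.49 against *Mpo* cells and 3.29 against the remaining cells, and 625 of the 651 cells held a UMI. *Irf5* was at 0.921 with a log2 ratio of 6.43 against clusters 0–2, and *Irf8* at 1.83, 1.29 above the remaining cells. *Id3* was lower, at 1.30 against 7.57.

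Genes of the early blood programme were mostly lower than in the other cells of cluster 5. *Myb*, a factor of progenitors, was at 0.0970 against 1.19 in *Mpo* cells and 1.15 in remaining cells, a log2 ratio of -3.57 against the latter. *Kit*, the receptor for SCF, was at 0.0423 against 0.643 in the remaining cells and 0.260 in clusters 0–2, and *Gata2* at 0.0427 against 0.488 and 0.321. Of the 12 blood emergence genes compared with the remaining cells, 9 were at least 2-fold lower and 2 higher, with a median of -3.54, and of 11 compared with *Mpo* cells 7 were lower and 0 higher. Against clusters 0–2, where *Myb* was at 0.0137, 3 of 7 were higher (*Runx1*, *Spi1* and *Ptprc*) and 3 lower (*Gata2*, *Kit* and *Cd34*). *Runx1*, the factor required for blood to emerge from endothelium, differed less, at 1.11, 1.85, 1.29 and 0.0495 in macrophage-like, *Mpo* and remaining cells and clusters 0–2. *Ptprc*, which encodes CD45, the antigen excluded in the first sort, was at 1.64 with UMIs in 600 of the 651 cells, against 0.0166 in clusters 0–2.

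Clusters 0–2 were not alike, and their sum mostly reflects cluster 2, with 5396 of the 6923 cells. Set against cluster 1 alone, a comparison added after these values were seen, 1206 of 9294 genes (13%) were at least 2-fold higher in the macrophage-like cells and 2493 (26.8%) lower. Against cluster 1, 5 of 6 complement genes, 7 of 9 Fc receptor and ITAM genes, 8 of 12 transcription factors and 5 of 7 resident macrophage genes were still at least 2-fold higher. This was not so for the lists of digestion and activation. Against cluster 1, lysosomal genes were higher for 4 of 19 and lower for 2 (median -0.12), iron and haem genes for 2 and 3 of 6 (median -0.66), lipid genes for 1 and 8 of 12 (median -2.02), scavenger receptors for 1 and 3 of 7 (median -0.75), Toll-like receptors and sensors for 1 and 4 of 9 (median 0.40), chemokines for 3 and 5 of 12 (median -0.38), and stress genes for 0 and 1 of 7 (median -0.88). Among inflammatory genes 0 of 7 were higher and 6 lower, with a median of -4.52. The median of all genes in this comparison was -0.23. For some genes, cluster 1 levels came largely from its 28 cells with *C1qb* at 4 or more. These held 3151 *Il1b* and 11120 *Apoe* UMIs, against 1421 and 5579 in the other 771 cells. Other genes lay mostly in the 771 cells, with 13615 *Cxcl2* and 53796 *Fabp4* UMIs against 1761 and 887. The lists were not compared without the 28 cells.

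**Figure D3:**
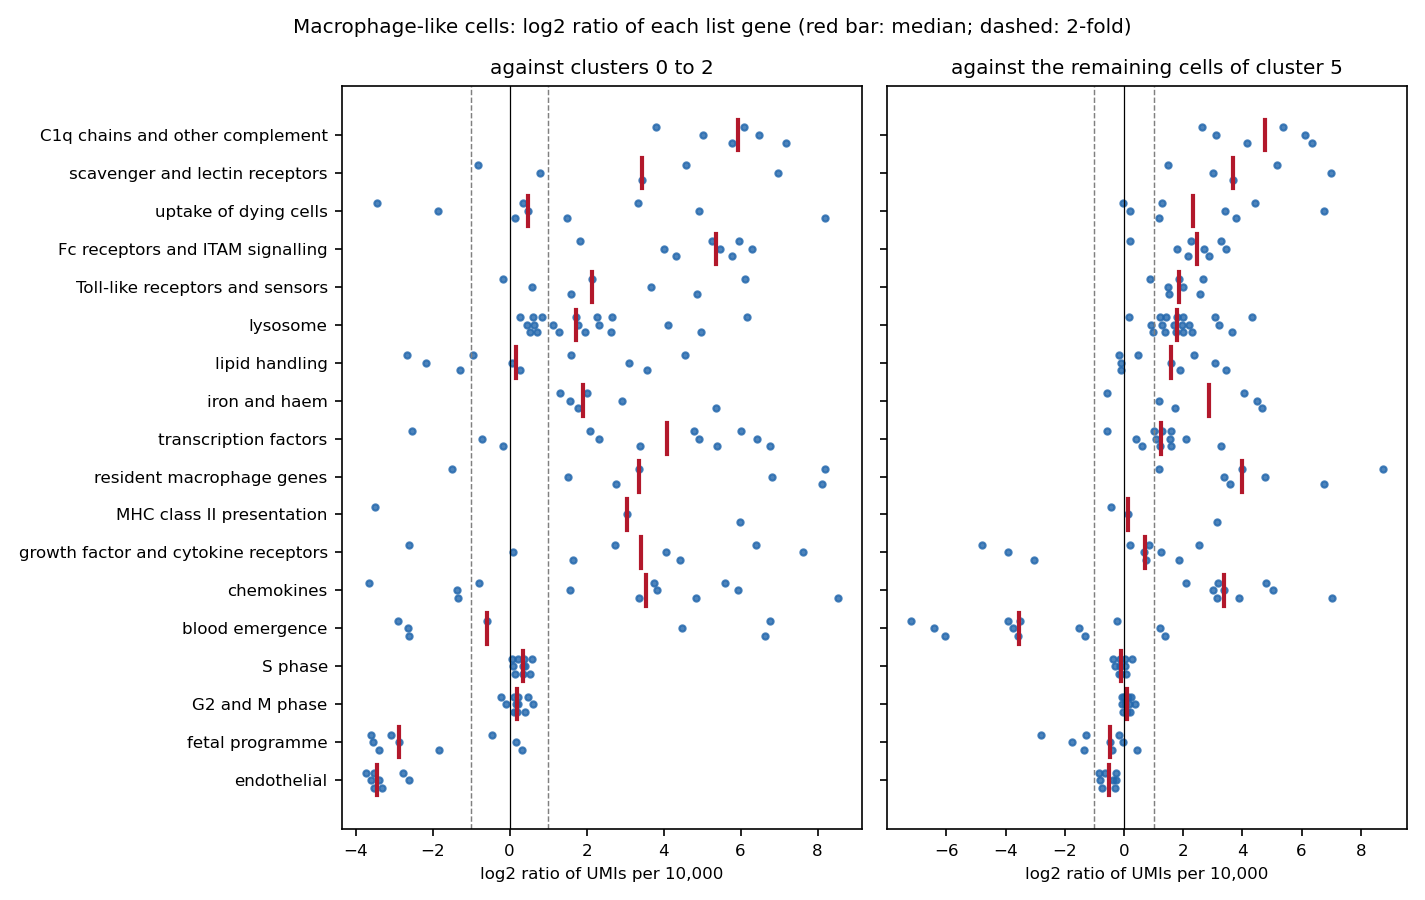
Each blue point is 1 gene of the list named on the y axis, placed by the log2 ratio of its level in the macrophage-like cells to clusters 0–2 (left) or to the remaining cells of cluster 5 (right), for genes with at least 0.1 UMIs per 10,000 in the higher group. Red bars are list medians and dashed lines mark 2-fold. The medians of complement are 5.93 and 4.77, those of the endothelial list -3.45 and -0.51, and those of G2 and M phase 0.20 and 0.11.

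All 7 compared resident macrophage genes were higher than in the remaining cells (median 3.99), and 6 of 7 were higher and 1 lower than in clusters 0–2 (median 3.37). *F13a1*, a coagulation factor chain made by macrophages and monocytes, was at 1.63 with log2 ratios of 8.12 and 3.99 against clusters 0–2 and remaining cells. *Lyve1*, the hyaluronan receptor of perivascular macrophages and lymphatic endothelium, was at 0.665, 0.517 and 0.314 by suffix, 0.506 in all, with UMIs in 142 members, and at 0.0187 in the remaining cells and 0.177 in clusters 0–2. *Fcna*, a ficolin of the lectin complement pathway, was at 0.485 with UMIs in 146 members and 44.4% of them in 10 cells. The growth factor *Igf1* was lower, at 0.336 against 0.943 in clusters 0–2. *Folr2* was at 0.0809 and had no UMI in either other group of cluster 5. *Vsig4* and *Cbr2* were nearly unread, at 0.000403 and 0.00725. *Pf4*, which platelets and macrophages both make, was at 2.53 against 167 in cluster 6.

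Monocyte genes were low except 1. *Ccr2* was at 0.0950 and *Ly6c2* at 0.00242, whereas *Plac8* was at 2.19, with 10.3 in *Mpo* cells, 2.67 in remaining cells and 0.0233 in clusters 0–2. *Prtn3*, a granule protease of neutrophil precursors, was at 1.48 against 20.8 in *Mpo* cells. The granulocyte list summed to 1.73 per 10,000 in macrophage-like cells and 90.2 in *Mpo* cells, and *S100a9*, a calcium-binding protein of neutrophils, was at 0.0189 against 23.9. Of the microglial markers, *P2ry12* was at 0.430, *Tmem119* at 0.236, *Siglech* at 0.116 and *Sall1* at 0.00322. These levels were low but above those of the other groups. All 3 compared genes were at least 2-fold higher than in clusters 0–2, *Mpo* cells and remaining cells, with medians of 8.18, 5.20 and 2.07. *P2ry12* was read in 387 members. The cell types that follow were barely read. The mast cell list summed to 0.00443 with 4 of 5 genes at 0, the lymphoid list to 0.00684 with 3 of 5 at 0, the fibroblast list to 0.0781, the mural list to 0.0213 and the cardiomyocyte list to 0.0254.

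Chemokines were higher than in the other cells of cluster 5 and in clusters 0 and 2, but not than in cluster 1. The list summed to 12.2 per 10,000 in the macrophage-like cells and to 51.7 in cluster 1, against 0.768 and 0.343 in clusters 0 and 2. Of 12 compared with clusters 0–2, 8 were higher and 3 lower, with a median of 3.56, and all 9 compared with the remaining cells were higher, with a median of 3.36. *Ccl3*, a chemokine made by activated macrophages, was at 2.92 with a log2 ratio of 4.83 against clusters 0–2, and *Ccl24*, which recruits eosinophils, at 0.391 with 8.54. *Ccl2*, which recruits monocytes, was at 1.85 against 0.626 in clusters 0–2, a log2 ratio of 1.56 that was 0.47 when the mean of the cells replaced the sum of UMIs. In cluster 1 *Ccl2* was at 11.6. *Cxcl2* was lower, at 0.400 against 1.03. Among genes of inflammatory activation, both that could be compared within cluster 5 were at least 2-fold higher than in the remaining cells. *Il1b* was at 0.307 with log2 ratios of 2.89 against the remaining cells, 2.44 against *Mpo* cells and 0.06 against clusters 0–2. Of the 4764 *Il1b* UMIs of clusters 0–2, 3151 lay in 28 cells of cluster 1 with *C1qb* at 4 or more. The last ratio thus rests largely on these cells, and it was not computed without them. *Tnf* was at 0.122 with log2 ratios of 1.57, 1.06 and 3.27 in the same order. The list summed to 0.558 in the macrophage-like cells and 9.81 in cluster 1. *Nos2* was at 0.00765 and *Il12b* had no UMI. Of genes of alternative activation, *Arg1* and *Retnla* were at 0.0137 each, and *Chil3* and *Il10* had no UMI. Of growth factor and cytokine receptors, 6 of 8 were higher and 1 lower than in clusters 0–2, but 3 of 10 were higher and 3 lower than in the remaining cells. Of 8 secreted factors compared with clusters 0–2, 1 was higher and 6 lower, with a median of -2.24.

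Genes of antigen presentation on MHC class II were concentrated in few cells. *Cd74*, the invariant chain, was at 0.294 in macrophage-like cells and 0.270 in the remaining cells. *H2-Aa* was at 0.0717 but was read in only 7 members, and *H2-Eb1* at 0.0612 in 11. The master regulator *Ciita* had no UMI. A group of 4 cells, 1, 2 and 1 by suffix and chosen after their values were seen, held 172 *H2-Aa* UMIs, and the other 647 held 6. *Cd74* was at 50.6 per 10,000 in these 4 cells and at 0.143 in the rest, and *Il1b* at 2.82 and 0.300. The co-stimulatory receptor *Cd86* was wider, at 0.702 with a log2 ratio of 5.99 against clusters 0–2.

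The genes with the largest differences from the other cells of cluster 5 were partly the same list members. Against the remaining cells, *Mrc1*, *C1qa* and *C1qc* were followed by *Fcrls*, an Fc receptor-like gene of microglia and other macrophages, by 5.73, *Fcgrt*, the receptor that recycles IgG, by 5.13, and *Dab2*, an endocytic adaptor, by 4.61. The genes lowest in macrophage-like cells against the remaining cells were *Gm15915* with -6.56, which rested on 37 UMIs in 9 members and was -10.42 without suffix 2, the carbonic anhydrase *Car2* with -5.15, the adhesion receptor *Adgrg1* with -5.09 and *Zfpm1*, the cofactor of GATA1, with -4.11. Globin genes were also lower, among them *Hbb-bh1* with -3.46, which was -6.88 without suffix 1 and -2.80 without suffix 2. Against *Mpo* cells the lowest were the neutrophil granule genes *Camp* with -11.75 and *Ngp* with -11.51, and *Ms4a3* with -11.35. Each rested on 2 UMIs in the macrophage-like cells. By suffix the ratios were -10.96, -10.08 and -2.22 for *Camp*, -10.11, -2.70 and -10.10 for *Ngp*, and -9.92, -9.19 and -8.65 for *Ms4a3*. Against clusters 0–2, *Ly86*, the partner of the receptor RP105, was higher by 8.51 and *Pld4*, an endosomal nuclease, by 7.75. The 10 lowest were *Aplnr*, the apelin receptor, with -3.91, *Cdh2*, N-cadherin, with -3.90, *Tmem255a*, *Bok*, *Bgn*, *Cavin3*, *Limch1*, *Emcn*, *Plvap* and *Nr2f2*, a factor of venous endothelium, with -3.65.

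Embryonic globins in the macrophage-like cells came mainly from 1 cell. *Hbb-y* was at 4.95, 0.218 and 0.0895 by suffix, and 10 cells held 97.7% of its UMIs. A single cell under suffix 1 held *Hbb-y* and *Hba-x* at 100 per 10,000 or more, and the next highest held 25.9. Without it, *Hbb-y* was at 0.126 in place of 2.13. Against *Mpo* cells the log2 ratios of *Hba-x* and *Hbb-y*, 6.35 and 5.74, were 2.35 and 1.58 without suffix 1, and against the remaining cells that of *Hbb-y*, -3.44, was -6.91 without suffix 1 and -2.73 without suffix 2. By suffix the latter ratio was -2.71, -7.45 and -0.28, so that it was close to 0 under suffix 3.

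Among the macrophage-like cells at 5,000 UMIs, the variance over the mean was largest for *Hbb-y* with 372 and *Hba-x* with 263. The class II genes followed, with *Cd74* at 77.3, *H2-Aa* at 64.3 and *H2-Eb1* at 54.8, then *Hmox1* at 25.3 and *Apoe* at 24.5. *C1qb* counts over the 650 cells correlated best with *C1qc* (Spearman's rho 0.70) and *C1qa* (0.64), followed by *Apoe* (0.62), *Ctsb* (0.62), *Ftl1* (0.60) and *Lgmn* (0.60). The lowest values belonged to *Npm1* (-0.51) and *Ptma* (-0.50), abundant genes of growing cells, and to *Plac8* (-0.44). The cells share libraries and were chosen by *C1qb*, and thinning gave all of them the same depth, so these values describe an order among the cells. At one end were cells with more C1q, lysosomal and ferritin transcripts, and at the other cells with more *Plac8*, *Prtn3* and nucleolar transcripts.

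In a panel of genes chosen after these values were seen, *Apoe* and *Npm1* had a rho of -0.69, *Ctsb* and *Ftl1* of 0.74, and *Plac8* and *Npm1* of 0.47. *Mrc1* went with *Dab2* (0.62), *Stab1* (0.46) and *Pf4* (0.46). Endothelial genes went with each other, with 0.56 for *Cdh5* and *Cldn5*. *Mki67*, a gene of dividing cells, had a rho of -0.01 with *C1qb*.

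**Figure D4:**
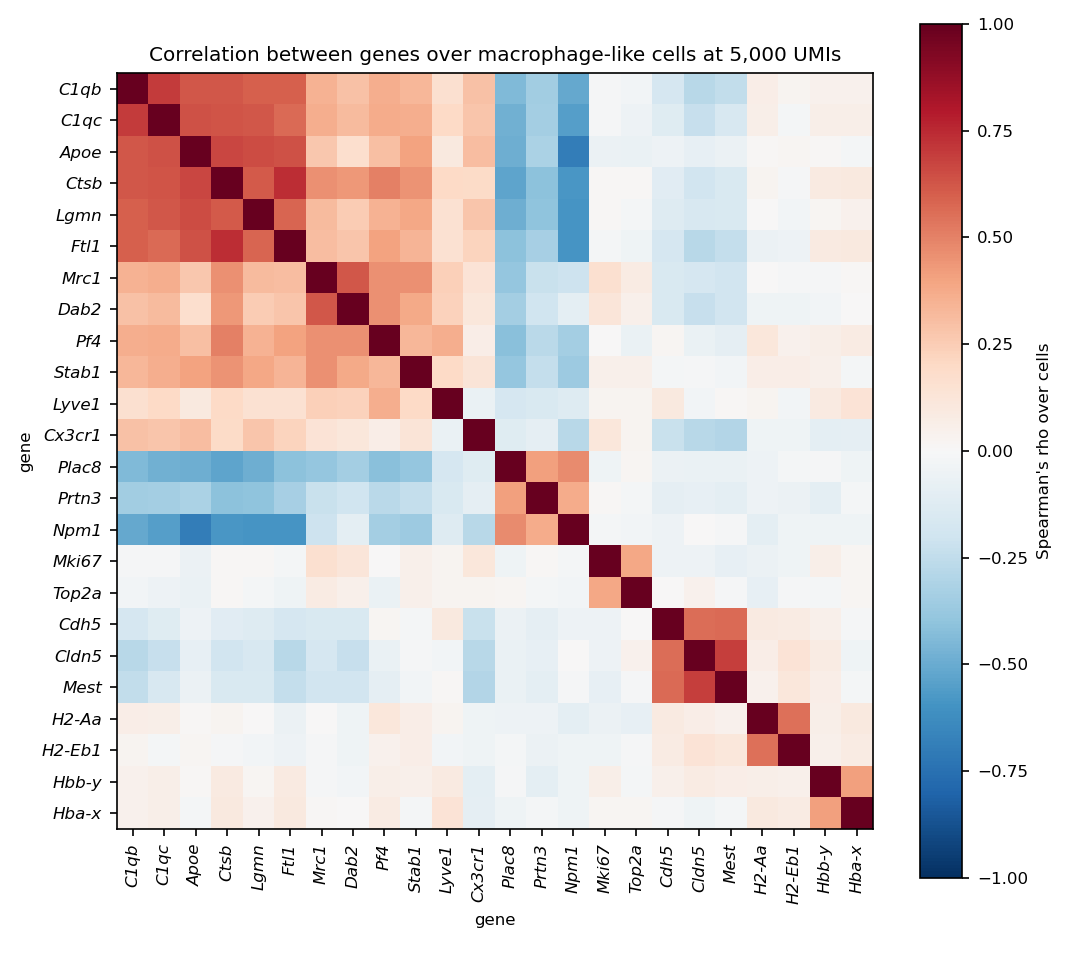
Each square gives Spearman's rho between the counts of a pair of genes (both axes) over the 650 macrophage-like cells thinned to 5,000 UMIs, from blue at -1 to red at 1. The C1q, lysosomal and ferritin genes form a red block, *Npm1* and *Plac8* stand blue against it, with -0.69 between *Apoe* and *Npm1*, and the endothelial genes form a second block.

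Transcripts of dividing cells were as frequent in the macrophage-like cells as in the rest of cluster 5. The G2 and M list summed to 41.2 per 10,000 in them, 42.5 in *Mpo* cells, 38.9 in remaining cells and 36.3 in clusters 0–2. None of the 10 compared S phase genes and 11 G2 and M phase genes differed 2-fold from clusters 0–2 or from the remaining cells. However, all 10 and all 11 were at least 2-fold higher than in cluster 1, with medians of 2.11 and 2.70. Against cluster 0, 4 of 10 and 5 of 11 were at least 2-fold higher and 0 lower, with medians of 0.88 and 0.84. The G2 and M list was above 10 per 10,000 in 92.3% (90.0–94.2) of the thinned macrophage-like cells, with 92.7%, 92.7% and 91.0% by suffix. The share was 93.0% in the remaining cells, 97.6% in *Mpo* cells and 72.0% in clusters 0–2, where it ranged from 9.26% in cluster 1 to 85.4% in cluster 2. Per cell the list had a median of 38, with outer deciles of 14 and 68. These are ranges of 1 measure and no phase was called.

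Genes of fetal growth divided. *Lin28b* was at 0.247 with UMIs in 307 members, a log2 ratio of 0.17 against clusters 0–2. *Igf2bp1*, which binds fetal messenger RNAs, was at 1.54 against 2.11 with UMIs in 589 members, and its relative *Igf2bp3* at 1.31 against 1.06. *Hmga2*, a chromatin protein of fetal progenitors, was at 0.464 against 3.24 in the remaining cells and 3.39 in clusters 0–2, a log2 ratio of -2.87 against the latter. The imprinted genes were lower too, *Mest* at 1.68 against 20.4, *Igf2* at 1.03 against 12.1 and *H19* at 1.12 against 9.55. Of the 9 genes compared with clusters 0–2, 0 were higher and 6 lower.

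Of 7 immediate early and stress genes, 6 were at least 2-fold higher than in clusters 0–2 and 5 than in the remaining cells. The list summed to 21 per 10,000, against 8.01 in the remaining cells and 5.49 in clusters 0–2, of which cluster 1 stood above the macrophage-like cells at 31.6. *Fos* was at 9.45, 3.72, 2.56 and 0.682 in macrophage-like, *Mpo* and remaining cells and clusters 0–2. *Egr1* was at 1.68 against 0.284 in clusters 0–2 and the heat shock gene *Hspa1a* at 1.36 against 0.199. Dissociation and sorting are known to raise such genes, and their part in the other differences was not tested.

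Endothelial transcripts were low in most macrophage-like cells and clear in some. All 8 genes of the endothelial list (*Pecam1*, *Cdh5*, *Kdr*, *Tek*, *Egfl7*, *Emcn*, *Cldn5* and *Esam*) were at least 2-fold lower than in clusters 0–2, with a median of -3.45 and summed levels of 4.55 and 42.0. *Cdh5*, which encodes the sorted antigen VE-Cad, was at 0.532, 0.557 and 0.425 by suffix against 4.97 in clusters 0–2. It was read in 18.9% (16–22.1) of thinned macrophage-like cells, 30.8% of remaining cells, 13.1% of *Mpo* cells and 87.7% of cells of clusters 0–2. The shares in clusters 3 and 4, which had passed the same sorts, were 30.1% and 14.5%. *Pecam1*, which encodes CD31, was at 0.564 against 3.85.

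The endothelial list per cell had a median of 1.66 per 10,000 in the macrophage-like cells and of 42.4 in clusters 0–2. Chosen after these values were seen, a level of 10 divided them into 119 cells at or above it (18.3%, 15.4–21.5) and 532 below, whereas 99.0% of the cells of clusters 0–2 were above. The share was 12.6%, 28.6% and 11% by suffix, and was highest under suffix 2, the shallowest library of these cells. It was 35.6% in the remaining cells, 34.3% in cluster 3 and 12% in cluster 4. Under suffix 2 the 119-cell class was shallow, with a median of 8296 UMIs against 21485 in the cells below 10. Under suffixes 1 and 3 it was deep, with 54243 against 36286 and 75872 against 58932.

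Cells at 10 or above held *Cdh5* at 2.51 and *Kdr*, the VEGF receptor, at 2.26 per 10,000, and those below at 0.105 and 0.0679. Both genes belong to the list that made the split, so their difference follows from it. *Mest* was at 8.71 and 0.292, *Igf2* at 4.99 and 0.250, and *H19* at 5.29 and 0.300, so the imprinted genes were divided in the same way as the endothelial ones. Macrophage transcripts were lower in the first class, with *C1qb* at 11.2 against 18, *Mrc1* at 2.03 against 3.69, *Cx3cr1* at 3.01 against 5.77 and *Ptprc* at 0.945 against 1.77. Where the endothelial transcripts of these cells came from was not tested. Without the 119 cells, *Cdh5* was read in 7.16% of the macrophage-like cells, a share that this choice by itself lowers.

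**Figure D5:**
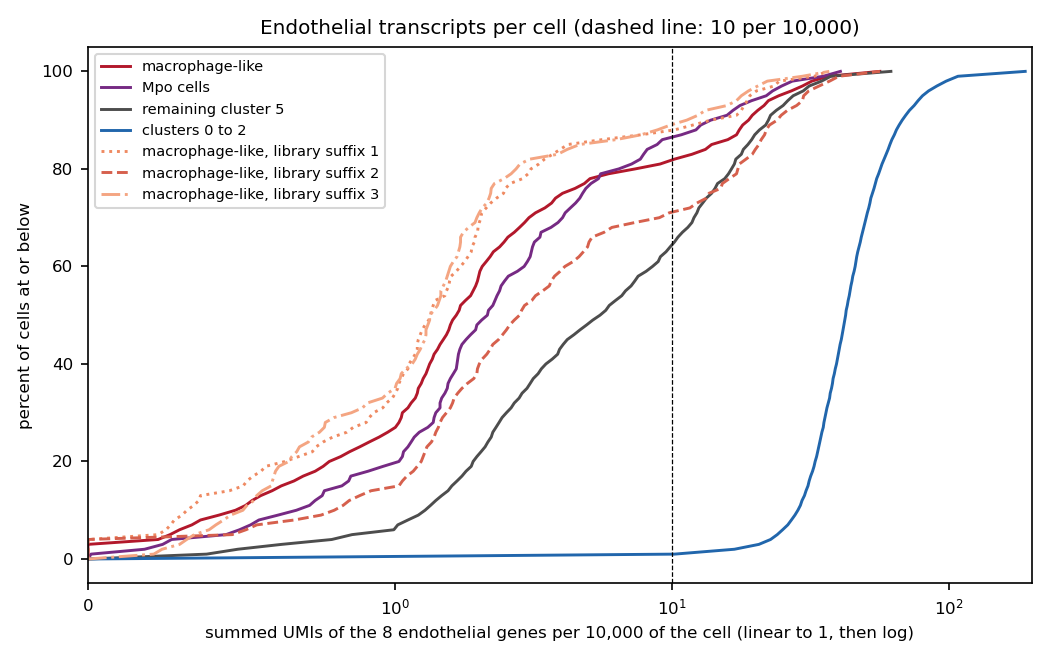
Each line is a group of cells, and gives the percent of its cells (y axis) at or below a summed level of the 8 endothelial genes per 10,000 UMIs of the cell (x axis, linear to 1 and then log). The dashed line at 10 leaves 18.3% of the macrophage-like cells, 35.6% of the remaining cluster 5 cells and 99.0% of clusters 0–2 above it.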

How the data were processed

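Single-cell RNA-seq (10x Genomics 3′ v3) covered 3 pools. Per the labels and methods, the authors ran Cell Ranger 3.1.0 on mm10 and joined the libraries with batch-effect removal. The processing notes also list Seurat 3.1.5. The deposited counts are whole UMIs per gene and cell, 252339042 in 9562 cells, 90 of them below the 5,000 UMIs the methods state. The deposited normalized table is the natural log of 1 plus UMIs per 10,000, recomputed to within 6.22e-15. The deposited UMAP coordinates went unused, and clusters are the authors'.

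Of 27998 identifiers, 27722 took names from GENCODE M21. Group levels have exact Poisson intervals, shares Clopper–Pearson intervals and ratios conditional binomial intervals, all at 95%. Genes needed 0.1 UMIs per 10,000 in the higher group, and a gene at 0 was given 3 UMIs over the group as its upper limit. Thinning drew 5,000 UMIs per cell. The ratios were tested on simulated counts. Genes named are list members, the 10 largest ratios in each direction at 1 UMI per 10,000 or more with the same direction in every library, the 15 largest variances over the mean and the 10 best correlations with *C1qb*. The members and lists were chosen with earlier results of these data known. With 1 sample, no test and no P value is given. Alternatives moved the thresholds, the minimum level and the fold, used the normalized table or the mean of cells, and left out each library or doublet calls. Python 3.11.15, numpy 2.4.6, scipy 1.17.1 and scanpy 1.11.5 were used.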

Additional observations from a re-analysis of the deposited data

How the results depend on the processing

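No paired analysis was possible because the matrix pools 1 group of samples and ties no cell to a pool. The number of macrophage-like cells was 703 with *C1qb* at 2 or more and 541 at 8 or more, and 390 to 506 when 1 library was left out. The counts of genes at least 2-fold higher and lower depended on the minimum level and the fold. With a minimum of 1 UMI per 10,000 they were 212 and 283 against clusters 0–2, 142 and 54 against *Mpo* cells, and 163 and 38 against the remaining cells. With no minimum they were 5530 and 4199, 1791 and 3290, and 2459 and 2710, and at 4-fold 486 and 901, 260 and 170, and 216 and 155. The next alternatives were chosen after seeing the data. Without cells at 10 or more of the endothelial list the counts were 967 and 1709, 673 and 398, and 734 and 433, and without the *C1qb* cells of clusters 0–2 they were 921 and 1589. The share with *Cdh5* was 38.7% as deposited, 24.7% above 0.5 per 10,000, 15.7% with *C1qb* at 8 or more and 12.3% to 23.1% when 1 library was left out. It was 7.16% without the cells at 10 or more of the endothelial list, which includes *Cdh5*. The share with a Y-linked UMI was 59.9% as deposited. The share above 10 for the G2 and M list stayed between 90.9% and 93.5%. Gene ratios were recomputed only without each library, with the mean of cells, centred on the median of all genes, and without cells at 10 or more of the endothelial list. The other alternatives were not applied to them. Of 744 recomputed ratios of 124 genes and comparisons, 381 left the counting interval, and 1 crossed 2-fold, *Ccl2* against clusters 0–2. Of the ratios that were 2-fold or more in the main result, 0 changed direction. Changes of sign in smaller ratios were not counted. Depth limits genes near 0, and spread is given only as ranges over the 3 library suffixes, which no source used here ties to a pool.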

Other observations

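Cells with *C1qb* at 4 or more were not all in cluster 5. Cluster 1 held 28 of them, cluster 2 held 10, and clusters 0, 3 and 6 held 1, 1 and 2. The 28 cells of cluster 1, looked at after these counts were seen, lay under all 3 suffixes with 15, 10 and 3 cells and a median of 18090 UMIs. *C1qa*, *C1qb* and *C1qc* were at 20.5, 16.5 and 13.3 per 10,000, and *Csf1r* at 1.97, *Aif1* at 1.72 and *Ptprc* at 1.76.

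Their other transcripts differed from those of the macrophage-like cells of cluster 5. *Mrc1* was at 0.637, *Cx3cr1* at 0.262 (0.143–0.440) and *F13a1* at 0.150. *Cd14*, the co-receptor for lipopolysaccharide, was at 31.5, and was at 0.162 in the cluster 5 cells with low class II genes. The scavenger receptor *Marco* was at 5.96, *Il1b* at 59.0 and *Apoe* at 208. *Lin28b* had no UMI, which allows up to 0.0691, *Igf2bp1* was at 0.112 and *Mki67* at 0.0562. A Y-linked UMI was present in 17 of the 28 cells and an *Xist* UMI in 16. The origin of these cells was not tested.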
